A study of Homo sapiens with 6 samples.

Results

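The group described here is 10 genes of serine synthesis and of folate-bound one-carbon metabolism, taken from a matrix of 60930 rows by a fixed list of gene symbols matched to Ensembl identifiers. The list holds 5 enzymes of the cytosol, PHGDH, PSAT1, PSPH, SHMT1 and MTHFD1, and 5 of the mitochondria, SHMT2, MTHFD1L, MTHFD2, MTHFD2L and ALDH1L2. All 10 symbols were found. The symbols alone decided which rows were taken, but the list was drawn up with earlier results of these data known. RNA-seq was performed on xenografts of MDA-MB-231 cells (genotype WT), a line from a human breast cancer that lacks hormone receptors and HER2 amplification, grown after orthotopic injection into the fourth mammary fat pads of female NSG mice, which lack T, B and NK cells but keep their own stroma, vessels and macrophages. According to the study's methods, the mice were six-to-eight weeks old. RNA came from the core of the tumor (TC, n = 3) or from its margin (TM, n = 3), each sample of a zone from another mouse, and both zones received the same injection and no other agent. The labels do not say whether TC and TM of one number came from the same mouse. The study asked how metabolism, purine metabolism above all, differs between the zones, and purine synthesis takes up one-carbon units.

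Serine is made from a glycolytic intermediate by PHGDH, PSAT1 and PSPH in turn. Serine hydroxymethyltransferase then passes a carbon of serine to tetrahydrofolate, in the cytosol as SHMT1 and in the mitochondria as SHMT2. In proliferating cells the mitochondrial arm (SHMT2, MTHFD2 or MTHFD2L, MTHFD1L) usually runs from serine to formate, which leaves the mitochondria and is taken up again by MTHFD1 for purine and thymidylate synthesis. MTHFD2 is known as a mitochondrial enzyme of embryos and tumors that is low in most adult tissues, and several of these genes are known targets of the stress-induced factor ATF4.

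Values are TPM, a transcript abundance per length and per fixed total that can be compared between genes. TPM keeps no read depth, so the depth of each library is unknown and no interval of counting error can be given. The columns summed to 1000000 in 5 libraries and to 994381 in TM replicate 3. Each difference below is the TC mean less the TM mean in log2(TPM + 1), tested by limma over the 13861 genes that reached 1 TPM in 3 or more samples. On that scale the median of all genes tested was -0.14, and 88% of the genes with an unadjusted p under 0.05 were lower in TC, against 60.4% after quantile normalization and 49.6% after median-of-ratios rescaling. Differences of the members are therefore also given relative to that median.

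Of the marks of the labelled line, vimentin (VIM) was at 3797 to 5283 TPM and keratin 18 (KRT18) at 387 to 575 TPM. Of the receptors, estrogen receptor (ESR1) and PGR reached no more than 0.13 and 0.22 TPM. ERBB2, which encodes HER2, was at 22.3 to 40.7 TPM. Its core values all lay below its margin values, as in 18.9% of all genes tested. The cell type is labelled epithelial, but E-cadherin (CDH1) reached no more than 0.36 TPM in any library. Of 10 skeletal muscle markers 9 were found, with a summed level of 175 TPM in TM replicate 1 and 473 TPM in TM replicate 2 against 2.74 to 8.04 TPM in the other 4 libraries. Of 10 fibroblast markers all were found, with 479 and 1007 TPM in the same TM libraries and 66.3 to 226 TPM in the others, although DCN was at 0 in 5 of the libraries. Most of this was collagen, with COL1A1 at 335 and 698 TPM and COL1A2 at 95.2 and 218 TPM in these TM libraries. COL3A1, FAP and POSTN were also highest in them, at lower levels. PDGFRB was not, at 3.45, 4.95 and 3.9 TPM in TM replicates 1, 2 and 3 and 2.5 to 2.58 TPM in TC. LUM was at 0 in both, and PDGFRA and THY1 reached no more than 0.3 and 0.07 TPM in any library. The sums of macrophage markers were 95.4 to 107 TPM in TC and 102 to 109 TPM in TM, with C1QA, C1QB, C1QC and TYROBP at 0 throughout. CD68 alone was at 84.8 to 94.2 TPM. Endothelial markers summed to 59.6 to 74.0 TPM in TC and 63.7 to 78.6 TPM in TM. Most of that was EGFL7 (26.65 to 40.4 TPM) and ESAM (23.2 to 35.6 TPM). PECAM1, VWF and KDR reached no more than 1.28, 0.66 and 1.78 TPM. For adipocytes the sums were 16.4 to 29.1 TPM in TC and 16.9 to 30.2 TPM in TM, with ADIPOQ and LEP at 0. Nearly all of that was PPARG, at 15.6 to 29.5 TPM. The macrophage, endothelial and adipocyte sums thus followed few genes of each list, and no cell content was read from them. Erythroid markers summed to 1.10 to 6.93 TPM in TC and 0.29 to 4.82 TPM in TM. No step that parts mouse from human reads was described, and in bulk tissue fewer cells of a type and less RNA per cell cannot be told apart.

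The 10 genes differed in level far more than the zones did. SHMT2 stood highest in every library, with a mean over the 6 samples of 197 TPM (range 163 to 258), which was above 95.2% of the genes tested. MTHFD1 followed with 67.9 TPM (range 53.1 to 85.3). SHMT2 was thus 2.91 times MTHFD1 on average, and neither range overlapped that of its neighbours. Next came MTHFD2 (44.0 TPM), MTHFD1L (39.8 TPM), PSAT1 (34.7 TPM), PHGDH (29.6 TPM), PSPH (28.4 TPM) and SHMT1 (24.5 TPM). Each of these overlapped the next in range, so neighbours in that order were not resolved. All MTHFD2 values lay above all values of PHGDH, PSPH and SHMT1, and all MTHFD1L values above those of SHMT1. MTHFD2L, the second mitochondrial dehydrogenase and cyclohydrolase, was at 9.06 TPM (range 7.09 to 11.7), below all of them. ALDH1L2, which oxidizes formyl-tetrahydrofolate in the mitochondria, was lowest at 0.26 TPM (range 0.080 to 0.58).

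**Figure D1:**
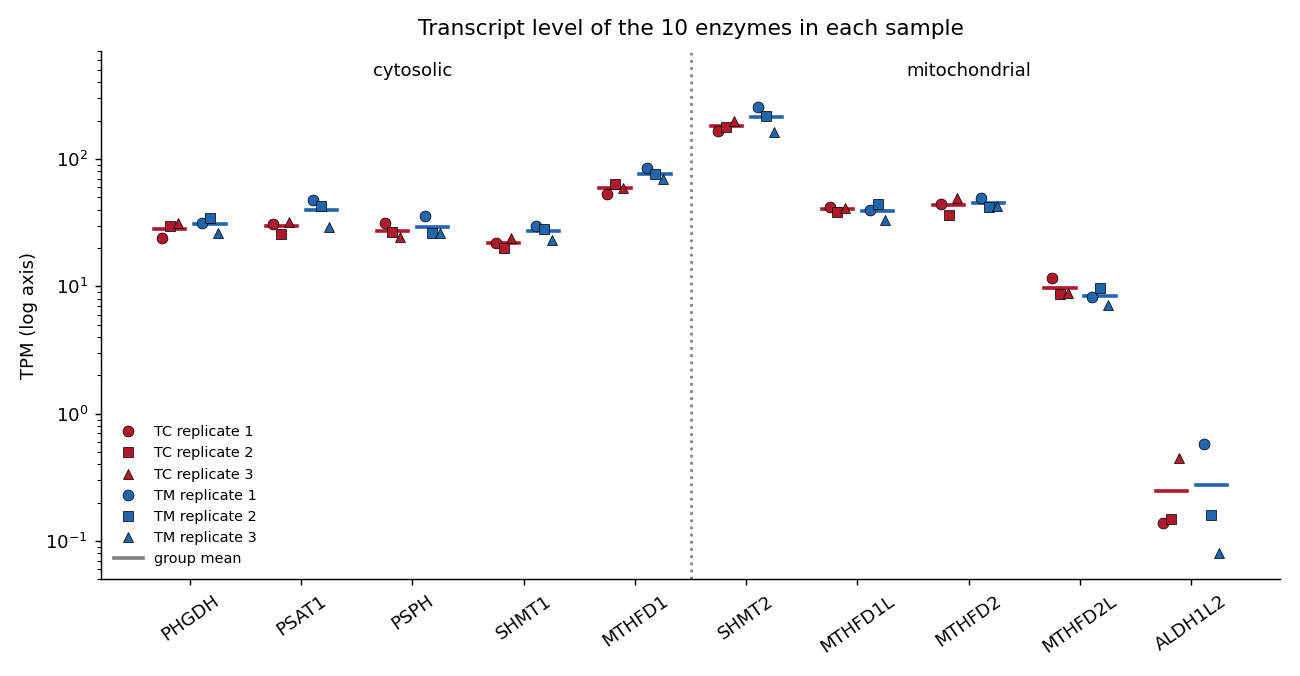
TPM of the 10 enzymes on a log axis, with a point for each TC (red) and TM (blue) library, a line at each group mean, and cytosolic enzymes to the left of the dotted line. SHMT2 lies highest at 163 to 258 TPM, ALDH1L2 lowest at no more than 0.58 TPM, and the core and margin points separate without overlap only for MTHFD1.

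Of the 10 enzymes 9 passed the filter on low values, and ALDH1L2 did not. At an adjusted p under 0.05 by limma, 0 of the 9 were called, where 0.137% of all genes tested were. At an unadjusted p under 0.05 there was 1 member, MTHFD1, lower in TC, where 16.2% of all genes met that mark and 14.2% did so in that direction. The core and margin values did not overlap for 1 member, again MTHFD1 and lower in TC, against 22.2% of all genes and 18.9% in that direction. Neither count stands above its background. The median difference of the 9 was -0.12, close to that of all genes, and 7 of the 9 were lower in TC, where 67% of all genes were.

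MTHFD1, the cytosolic enzyme that carries 3 activities and feeds formate back into the folate pool, lies at chr14:64388031-64463457 on the plus strand (GENCODE v29, GRCh38, as are all gene positions here). It was at 53.1, 64.0 and 59.4 TPM in the TC libraries and at 85.3, 76.0 and 69.4 TPM in the TM libraries. Every core value was below every margin value. The difference was -0.38 (SE 0.14, 95% interval -0.70 to -0.060, limma unadjusted p = 0.025, adjusted p = 0.23), or -0.24 relative to all genes. It stayed below 0 under every alternative, but was -0.29 (unadjusted p = 0.054) after quantile normalization and -0.17 (unadjusted p = 0.29) after median-of-ratios rescaling. The highest 2 values were those of the TM libraries with high muscle marker and collagen levels. Without both of these libraries the difference was -0.24 (unadjusted p = 0.29), and their part in the result was not tested.

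SHMT1, at chr17:18327860-18363563 on the minus strand, makes the cytosolic one-carbon unit from serine. Its values were 21.9, 20.0 and 24.1 TPM in TC and 29.9, 28.1 and 23.0 TPM in TM. TC replicate 3 overlapped TM replicate 3 alone, and the difference of -0.28 (SE 0.17, adjusted p = 0.47 by limma) did not pass the test. Relative to all genes it was -0.15. It was -0.11 after quantile normalization, -0.078 after median-of-ratios rescaling and -0.068 without TM replicates 1 and 2.

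Serine synthesis gave the same picture of overlap. PHGDH, its first enzyme, lies at chr1:119648411-119744226 on the plus strand and was at 24.0, 29.96 and 31.3 TPM in TC and 31.5, 34.6 and 26.5 TPM in TM. MDA-MB-231 is generally described as a line without PHGDH amplification, and the gene stood here above 71.8% of the genes tested. Its difference was -0.12 (SE 0.17, adjusted p = 0.80), and turned to 0.047 after quantile normalization and 0.089 after median-of-ratios rescaling. It was -0.0018 without TC replicate 1, the lowest of the core values, -0.031 without TM replicate 2 and -0.22 without TM replicate 3.

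PSAT1, the transaminase of the second step, lies at chr9:78297143-78330093 on the plus strand. It was at 31.1, 25.8 and 32.0 TPM in TC and at 47.2, 42.5 and 29.5 TPM in TM, so that the first and second margin libraries lay above all core libraries and TM replicate 3 among them. The difference was -0.39 (SE 0.20, adjusted p = 0.40), nominally the largest of the 9 in size. It was -0.59 (unadjusted p = 0.0075, adjusted p = 0.13) without TM replicate 3, -0.26 without TM replicate 1 and -0.00031 without TM replicates 1 and 2. Quantile normalization gave -0.22 and median-of-ratios rescaling -0.19. The value for PSAT1 therefore rested on which margin libraries were used.

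PSPH, the phosphatase that releases serine, was at 31.2, 26.9 and 24.3 TPM in TC and at 35.7, 26.2 and 26.3 TPM in TM, and the groups overlapped. Its difference of -0.088 (SE 0.18, adjusted p = 0.86) became 0.088 after quantile normalization and 0.12 after median-of-ratios rescaling. PSPH lies at chr7:56011051-56051604 on the minus strand, and its pseudogene PSPHP1 at chr7:55764797-55773288 on the plus strand. Of the 261 bases of the PSPHP1 transcript 258 aligned to the PSPH transcript of 2131 bases (PSPH-201), with 5 differing bases in all. The longer aligned stretch is shown because reads within it bear on both rows. It covers 150 bases that lie in 3 exons of PSPH (within chr7:56015170-56019601, minus strand, all coding) and in 1 exon of PSPHP1 (chr7:55764797-55764946, plus strand). Capitals mark the 4 bases that differ.
PSPH: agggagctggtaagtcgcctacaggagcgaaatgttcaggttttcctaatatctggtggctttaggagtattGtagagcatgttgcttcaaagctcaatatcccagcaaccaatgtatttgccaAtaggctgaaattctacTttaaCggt
PSPHP1: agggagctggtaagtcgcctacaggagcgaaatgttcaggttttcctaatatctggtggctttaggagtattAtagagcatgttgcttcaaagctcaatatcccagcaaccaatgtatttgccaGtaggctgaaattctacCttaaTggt
The longest run with no difference was 72 bases here and 97 bases in the other stretch of 108, which differed at 1 base.

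PSPHP1 was listed at a higher level than PSPH itself, with 79.6, 84.8 and 72.1 TPM in TC and 42.5, 38.5 and 62.4 TPM in TM. Every core value was above every margin value, as in 3.28% of the genes tested. The difference was 0.74 (SE 0.19, 95% interval 0.30 to 1.18, unadjusted p = 0.0045), or 0.87 relative to all genes, but did not pass the test (limma adjusted p = 0.12, and 0.058 to 0.52 over the alternatives). It was 0.94 without TM replicate 3 and 0.33 without TM replicates 1 and 2. The summed level of PSPH and PSPHP1 was 106 ± 8.59 TPM in TC and 77.2 ± 12.01 TPM in TM (SD, n = 3), and PSPH made up 25.8 ± 2.12% of it in TC and 38.6 ± 8.18% in TM. How the counting divided reads between the rows is not given in the sources used here, so both levels are uncertain. The PSPHP1 transcript of 261 bases is also shorter than the cDNA fragments that the study's methods name. TPM divides by length and can be far off for so short a transcript. The higher level of PSPHP1, the sum and the percent therefore describe the listed values only. No other pseudogene named for a member came near these values. Of 14 found, the other 13 were at no more than 0.17 TPM, and 9 were at 0 in all libraries.

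**Figure D2:**
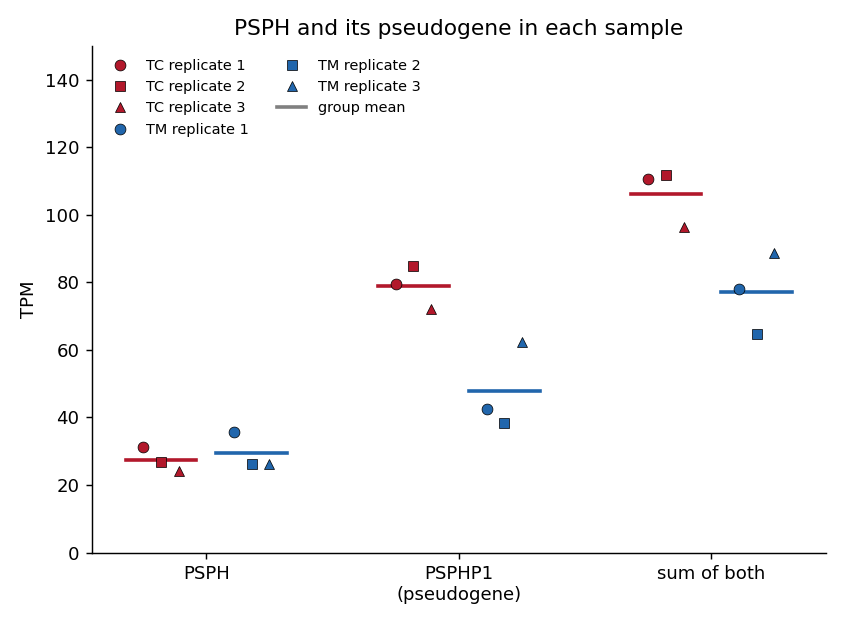
TPM of PSPH, of its pseudogene PSPHP1 and of their sum, with a point for each TC (red) and TM (blue) library and a line at each group mean. PSPH overlaps between the zones, whereas PSPHP1 is at 72.1 TPM or more in TC and at 62.4 TPM or less in TM.

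Among the mitochondrial enzymes, SHMT2 lies at chr12:57229327-57234935 on the plus strand. It was at 166, 178 and 200 TPM in TC and at 258, 218 and 163 TPM in TM. The margin held both the highest and the lowest value of the 6, so the core lay inside its range. The difference was -0.21 (SE 0.18, adjusted p = 0.62), -0.39 (adjusted p = 0.18) without TM replicate 3, -0.063 without TM replicate 1, -0.0017 after median-of-ratios rescaling and 0.14 without TM replicates 1 and 2.

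MTHFD2, which oxidizes the one-carbon unit in the mitochondria and lies at chr2:74198562-74217565 on the plus strand, was at 44.1, 36.4 and 49.1 TPM in TC and 49.8, 41.7 and 42.7 TPM in TM. The groups overlapped throughout. The difference was -0.056 (SE 0.16, 95% interval -0.42 to 0.31, adjusted p = 0.90), and 0.089 and 0.15 after quantile normalization and median-of-ratios rescaling. Its relative MTHFD2L, at chr4:74114174-74303099 on the plus strand, was at 11.7, 8.78 and 8.84 TPM in TC and 8.25, 9.72 and 7.09 TPM in TM. That difference was 0.20 (SE 0.21, adjusted p = 0.71), with overlap between the zones. It was 0.40 after quantile normalization, 0.39 after median-of-ratios rescaling, 0.078 without TC replicate 1, 0.10 without TM replicate 3 and 0.30 without TM replicate 2.

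MTHFD1L, the synthetase that releases formate from the mitochondrial folate pool, lies at chr6:150865549-151101887 on the plus strand. Its values were 42.1, 38.2 and 40.9 TPM in TC and 39.7, 44.7 and 33.0 TPM in TM. The core values lay within the range of the margin values, and the difference was 0.055 (SE 0.15, 95% interval -0.30 to 0.41, adjusted p = 0.90) or -0.059 without TM replicate 3. After quantile normalization it was 0.21, and after median-of-ratios rescaling 0.26. ALDH1L2, at chr12:105019784-105084577 on the minus strand, was at 0.14, 0.15 and 0.45 TPM in TC and 0.58, 0.16 and 0.080 TPM in TM, too low to compare.

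**Figure D3:**
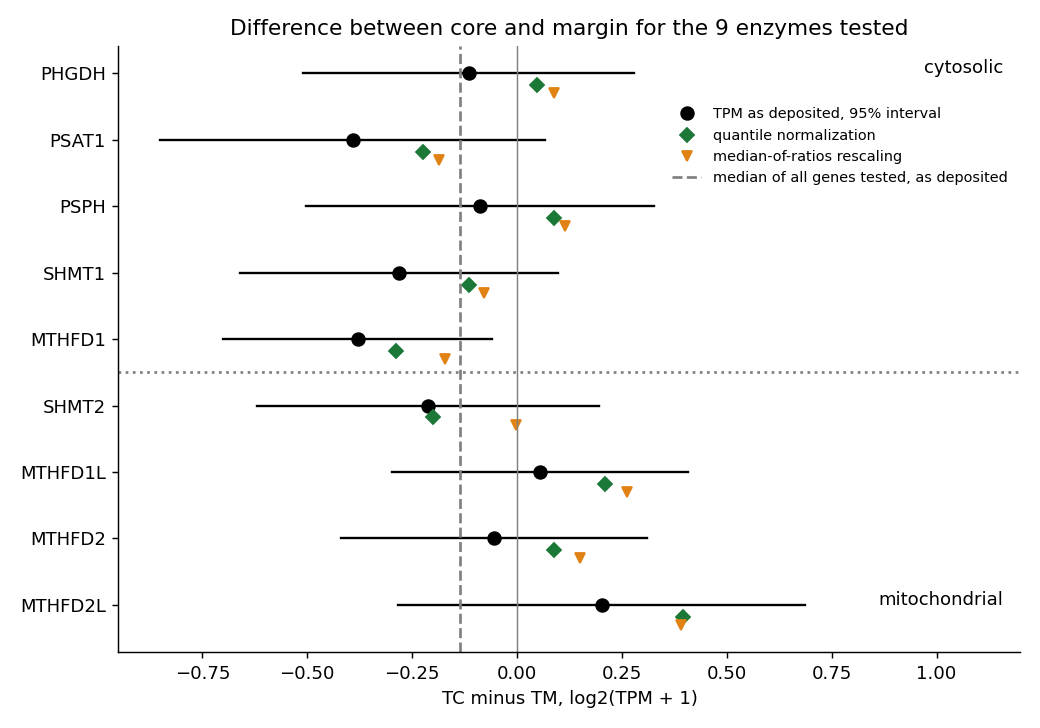
TC minus TM difference in log2(TPM + 1) for the 9 enzymes tested, as deposited (black point with its 95% interval) and after 2 other scalings (colored points); the dashed line is the median of all genes as deposited, at -0.14. Only the interval of MTHFD1 (-0.70 to -0.060) leaves out 0, and the other scalings move the points to the right, past 0 for PHGDH, PSPH and MTHFD2.

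TM replicate 3 was the lowest of the margin libraries for every member but PSPH and MTHFD2. Without it, core and margin did not overlap for 5 of the 9, PHGDH, PSAT1, SHMT1, MTHFD1 and SHMT2, all lower in TC, where 37.1% of all genes did so and 31.1% in that direction. Still, 0 of the 9 passed the adjusted test without it, and the smallest adjusted p of a member was 0.13 (PSAT1). Counting overlap without it was chosen after the values were seen, and the remaining margin libraries are the ones with high muscle marker and collagen levels.

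The 2 compartments were then set side by side. All 5 cytosolic enzymes were nominally lower in TC as deposited, of which PHGDH and PSPH were higher after both other scalings. Their median difference was -0.28, or -0.15 relative to all genes. On that relative scale PHGDH was at 0.021, PSAT1 at -0.26 and PSPH at 0.048. The 4 mitochondrial enzymes tested divided evenly, 2 lower and 2 higher (MTHFD2 turned higher after both other scalings). Their median was -6.6e-05, or 0.14 relative to all genes. Relative to all genes SHMT2 was at -0.076, MTHFD1L at 0.19, MTHFD2 at 0.080 and MTHFD2L at 0.34. Of these 9 differences only that of MTHFD1 had an unadjusted p under 0.05. The 5 cytosolic enzymes summed to 161, 167 and 171 TPM in TC and to 230, 207 and 175 TPM in TM. These sums did not overlap, although TC replicate 3 and TM replicate 3 came close. Of all single genes tested, 18.9% were likewise lower in TC without overlap, and the sums are not given after other scalings. The mitochondrial enzymes summed to 264, 262 and 300 TPM in TC and to 356, 315 and 246 TPM in TM, and here the zones overlapped.

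The mitochondrial enzymes made up 62.1%, 61.1% and 63.7% of the summed TPM of the 10 genes in TC and 60.8%, 60.3% and 58.5% in TM. The means were 62.3 ± 1.29% and 59.9 ± 1.19% (SD, n = 3), a difference of 2.42 percentage points with no overlap, for which no test was run. TC replicate 2 and TM replicate 1 lay closest. The difference was 0.98 points after quantile normalization and 4.22 points without MTHFD1 and SHMT2, the highest gene of each compartment. Without PHGDH, PSAT1 and PSPH, which have no mitochondrial counterpart on the list, the share was 77.3 ± 1.36% in TC and 74.5 ± 1.53% in TM. SHMT2 alone accounted for 41.1 ± 1.84% of the summed TPM in TC and 41.6 ± 2.59% in TM.

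Ratios between enzymes of one sample do not depend on how that sample was scaled, apart from the pseudocount of 1 and quantile normalization. For 4 ratios the smallest two-sided exact permutation p that 3 samples against 3 allow is 0.1, so none could pass 0.05. SHMT2 to SHMT1, the mitochondrial and cytosolic forms of one enzyme, was 7.58, 8.91 and 8.30 in the core and 8.61, 7.77 and 7.10 in the margin. These overlapped, and the log2 difference was 0.070 (exact p = 0.6, adjusted p = 0.6), or -0.086 after quantile normalization. MTHFD1L to MTHFD1, the mitochondrial synthetase against the cytosolic enzyme that includes one, was 0.794, 0.597 and 0.689 in the core and 0.466, 0.587 and 0.475 in the margin. This ratio was the only one of the 4 without overlap, although TC replicate 2 and TM replicate 2 were separated by little. Its log2 difference was 0.44 (exact p = 0.1, the smallest possible, adjusted p = 0.4 over the 4 ratios), and 0.33 to 0.54 when each library was left out in turn.

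MTHFD2 to MTHFD1 was 0.831, 0.568 and 0.827 in the core and 0.584, 0.549 and 0.616 in the margin, with a log2 difference of 0.32 (exact p = 0.3, adjusted p = 0.4). TC replicate 2 fell within the margin range, and without it the difference was 0.50. MTHFD2 to MTHFD2L, the usual tumor form against its relative, was 3.78, 4.14 and 5.56 in the core and 6.03, 4.29 and 6.03 in the margin, with a log2 difference of -0.26 (exact p = 0.2, adjusted p = 0.4) and overlap between the zones. With each library left out in turn it ran from -0.41 (without TC replicate 3 or TM replicate 2) to -0.15 (without TC replicate 1).

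**Figure D4:**
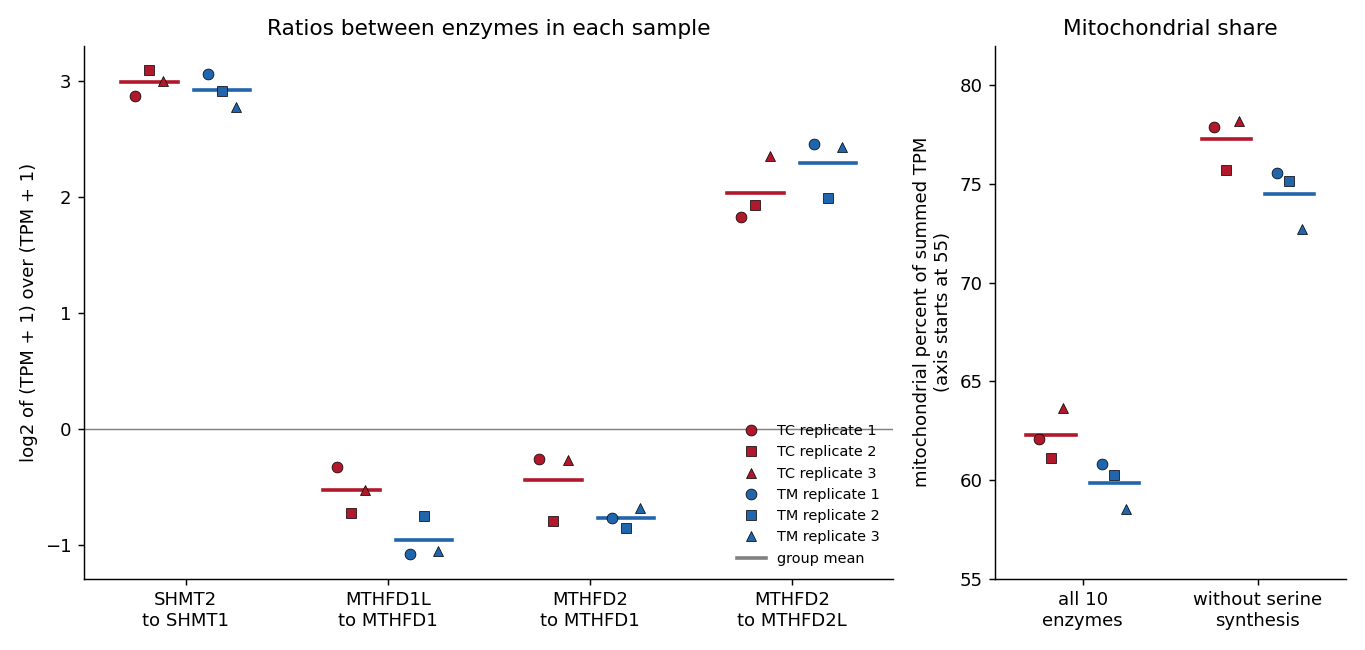
Left, log2 ratios between enzymes; right, the mitochondrial percent of the summed TPM with and without the serine synthesis enzymes (axis starts at 55), each with a point for each TC (red) and TM (blue) library and a line at the group mean. The ratio of MTHFD1L to MTHFD1 is the one left-hand ratio without overlap, and the mitochondrial share of all 10 enzymes is 61.1% or more in TC and 60.8% or less in TM.

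Promoter windows (250 bases before to 50 after a RefSeq start, GRCh38.p14) were at hand for 7 of the 10 genes, 11 windows in all. PSPH, SHMT2 and ALDH1L2 had no window and were not searched. These starts can differ from the gene positions above, and the windows of MTHFD1 and MTHFD1L lie within those positions. The windows were searched on both strands for TGATGNAA, a composite element known to be bound by ATF4 with C/EBP proteins. They were also searched for CACGTG, the E-box bound by MYC among others, and for CCAAT, bound by NF-Y. TGATGNAA was in 3 windows, all overlapping windows of MTHFD1L, and in 3.62% of 35116 windows of all genes. CACGTG was in 4 of the 11 windows, from MTHFD1 and MTHFD1L, and in 7.26% of all windows. CCAAT was in 8 of the 11 windows, from 6 of the 7 genes (all but MTHFD2L), and in 34.6% of all windows. Both counts include the overlapping windows of MTHFD1L. The motifs searched do not overlap each other in the windows shown. Those of MTHFD1 (chr14:64388103-64388402, plus strand) and MTHFD1L (chr6:150866236-150866535, plus strand) are given as the pair whose ratio did not overlap between the zones, with the matches in capitals (ATTGG is CCAAT on the other strand).
MTHFD1: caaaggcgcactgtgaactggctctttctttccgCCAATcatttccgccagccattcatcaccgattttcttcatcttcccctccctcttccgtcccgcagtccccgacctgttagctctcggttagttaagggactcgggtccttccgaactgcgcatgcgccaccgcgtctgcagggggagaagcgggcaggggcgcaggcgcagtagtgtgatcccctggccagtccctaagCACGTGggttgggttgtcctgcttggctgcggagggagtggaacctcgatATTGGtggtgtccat
MTHFD1L: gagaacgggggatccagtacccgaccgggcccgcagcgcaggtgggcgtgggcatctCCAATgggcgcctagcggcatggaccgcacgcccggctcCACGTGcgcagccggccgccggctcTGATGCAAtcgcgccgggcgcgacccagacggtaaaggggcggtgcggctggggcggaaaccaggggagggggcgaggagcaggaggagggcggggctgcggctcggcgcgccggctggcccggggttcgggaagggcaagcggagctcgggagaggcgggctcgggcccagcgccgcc
Such matches describe the letters only, and binding was not measured.

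Genes around the members were followed in 6 lists that together hold 57 genes. Of these 48 passed the filter, 0 were called at an adjusted p under 0.05 by limma, and 6 were lower and 1 higher in TC at an unadjusted p under 0.05, where 14.2% and 1.93% of all genes were. Core and margin values were without overlap for 11 of the 48, and for 22.2% of all genes. Nearest to the adjusted threshold were MAT2A and AMT. MAT2A, which makes S-adenosylmethionine, was at 77.8, 50.2 and 42.3 TPM in TC and 131, 100 and 119 TPM in TM, with a difference of -1.07 (SE 0.22, unadjusted p = 0.0013, adjusted p = 0.084). AMT, the folate-binding aminomethyltransferase of glycine cleavage, was at 2.76, 1.17 and 1.62 TPM in TC and 4.94, 5.78 and 8.31 TPM in TM, with a difference of -1.38 (SE 0.29, unadjusted p = 0.0014, adjusted p = 0.084). In both genes every core value lay below every margin value, including that of TM replicate 3. Over the alternatives the adjusted p was 0.070 to 0.30 for MAT2A and 0.073 to 0.30 for AMT, so neither was called under any of them.

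In the methionine cycle and transsulfuration list, 8 of 12 genes were tested and 2 had an unadjusted p under 0.05, both lower in TC. They were MAT2A and AHCYL1 (-0.38, adjusted p = 0.27), a relative of the S-adenosylhomocysteine hydrolase AHCY. AHCY itself was the highest of the list at 136 TPM, with a difference of -0.26 (adjusted p = 0.45). CBS, the first enzyme of transsulfuration, was listed at 0 in all 6 libraries, and so was its near-identical copy CBSL, so its level cannot be read from these values. Of the 4 glycine cleavage genes 3 were tested. GCSH, the carrier protein, was the highest at 33.0 TPM (0.17, adjusted p = 0.70), and GLDC, the decarboxylase, was at 0.26 to 0.71 TPM and did not pass the filter.

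Among the other folate enzymes 8 of 10 were tested, and 2 had an unadjusted p under 0.05. GART and ATIC, which use formyl-tetrahydrofolate to build the purine ring, had differences of -0.48 (adjusted p = 0.17) and -0.32 (adjusted p = 0.23). In each every core value was below every margin value, as in 18.9% of all genes tested. GART was at 50.9 ± 3.85 TPM in TC and 71.5 ± 10.3 TPM in TM, and ATIC at 132 ± 9.21 and 165 ± 9.34 TPM (SD, n = 3). TYMS, which uses a one-carbon unit for thymidylate, was the highest of the list at 164 TPM, and its difference of -0.18 (adjusted p = 0.68) became 0.029 after median-of-ratios rescaling. The cytosolic counterpart of ALDH1L2, ALDH1L1, was at no more than 0.95 TPM.

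In the list of folate transport and storage 6 of 7 genes were tested and 0 had an unadjusted p under 0.05. Core and margin values did not overlap for 3 of the 6, FPGS among them and 2 lower in TC, against 22.2% of all genes. FPGS, which adds the glutamate tail that holds folate in the cell, was the highest at 57.0 TPM, with a difference of -0.28 (adjusted p = 0.33). Of 14 genes of serine uptake and use 13 were tested and 1, the mitochondrial serine transporter SFXN3, had an unadjusted p under 0.05 (-0.51, adjusted p = 0.17). SFXN3 was at 78.8 ± 1.21 TPM in TC and 114 ± 20.8 TPM in TM (SD, n = 3) without overlap. SERINC3 was the highest of that list at 107 TPM, with a difference of 0.0073 (adjusted p = 0.99).

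All 10 genes of the list of ATF4 and its targets were tested, and their differences split into 5 lower and 5 higher with a median of 0.0049. DDIT3, which encodes the stress factor CHOP, was the 1 with an unadjusted p under 0.05 (0.40, adjusted p = 0.30). ATF4 was at 458 ± 41.2 TPM in TC and 402 ± 87.5 TPM in TM (SD, n = 3), with overlap and a difference of 0.21 (adjusted p = 0.61). The median differences of the other lists were -0.049 for folate transport and storage, -0.10 for other folate enzymes, -0.14 for glycine cleavage, -0.21 for serine uptake and use and -0.25 for the methionine cycle and transsulfuration, beside -0.14 for all genes.

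**Figure D5:**
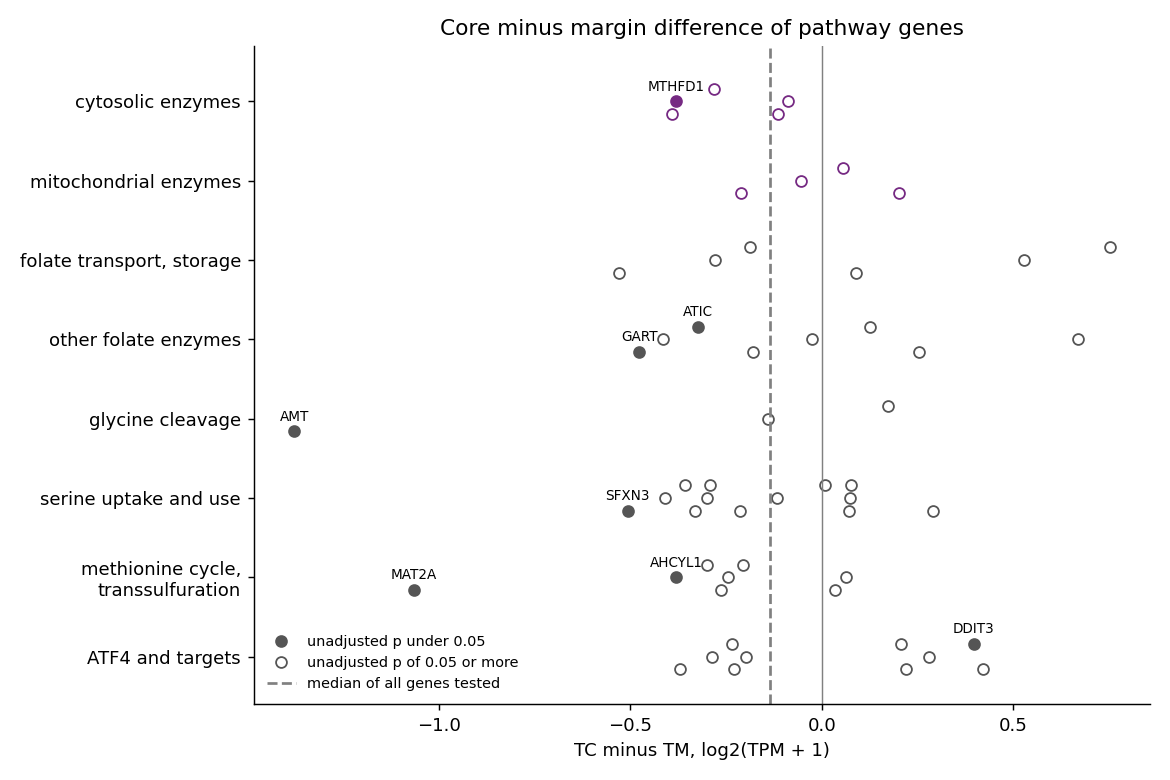
TC minus TM difference in log2(TPM + 1) for each gene tested of the 2 groups of members (purple) and the 6 pathway lists (grey), filled where the unadjusted p was under 0.05; the dashed line is the median of all genes tested, at -0.14. MAT2A (-1.07) and AMT (-1.38) lie farthest to the left, and most other genes, members included, lie within 0.5 of 0.

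The genes most like PHGDH, SHMT2 and MTHFD2 over the 6 samples were found by the mean absolute difference of their centred log2(TPM + 1) values. For PHGDH they were MLST8 (0.022), WDR46 (0.028) and SNRPA (0.031). Those for SHMT2 were BAK1 (0.023), DESI1 (0.037) and MRPS25 (0.039), and those for MTHFD2 included PEX3 (0.035) and PSMD6 (0.045). With 6 samples and 13861 genes such closeness is a description only.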

How the data were processed

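Tumor core and tumor margin of MDA-MB-231 xenografts were measured by RNA-seq, 3 libraries each, grouped by sample title. The authors deposited 1 matrix of TPM per gene, which summed to 1000000 per library except for 994381 in TM replicate 3. Per the study's methods, paired TruSeq reads passed through SeqPrep and Sickle for trimming, HISAT2 for alignment, StringTie for assembly and RSEM for quantification. The submitters' processing notes name hg38, and versions and annotation release are not given in the sources used here. Without counts, the study's DESeq2 could not be run.

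Here 259 loci outside the annotation were left out. The 13861 annotated genes that reached 1 TPM in 3 or more samples were fitted as log2(TPM + 1) with limma 3.58.1 in R 4.3.3 (trend, two-sided, Benjamini-Hochberg adjustment, called under 0.05), after a test on simulated data. P-values measure the spread between 3 tumors per zone. Ratios were compared by two-sided exact permutation with scipy 1.17.1, and PSPHP1 was aligned with blastn 2.17.0. The members, lists and tests were chosen with earlier results of these data known, and the members-only counts give no independent support. Named beside the members are, per list, up to 5 genes with an unadjusted p under 0.05, the gene with the highest mean TPM, the members' pseudogenes, and the 3 most similar genes to PHGDH, SHMT2 and MTHFD2, of which 1 is not reported here. CBSL, GLDC and ALDH1L1 were named after their values were seen. Alternatives were the pseudocount, filter, scaling, moderation, replicate block and samples left out.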

Additional observations from a re-analysis of the deposited data

How the results depend on the processing

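Calls among the 9 enzymes tested numbered 0 under all 17 alternatives, with a smallest adjusted p of 0.13. The sign turned in none of them for PSAT1, SHMT1, MTHFD1 and MTHFD2L. After quantile normalization, median-of-ratios rescaling and removal of TM replicates 1 and 2, the log2 difference was 0.047, 0.089 and 0.090 for PHGDH, 0.088, 0.12 and 0.054 for PSPH, and 0.089, 0.15 and 0.0052 for MTHFD2. That removal, chosen after the values were seen, gave 0.14 for SHMT2 and leaves 1 margin library, assumed to vary like the core. Leaving out each library in turn gave -0.22 to -0.0018 for PHGDH, 0.078 to 0.30 for MTHFD2L, -0.18 to 0.055 for PSPH, -0.059 to 0.15 for MTHFD1L and -0.15 to 0.060 for MTHFD2. TYMS turned to 0.029 after median-of-ratios rescaling and 0.20 without TM replicates 1 and 2. SERINC3 turned to -0.044 without mitochondrially encoded genes, -0.21 without TM replicates 1 and 2, and spanned -0.10 to 0.15 with single libraries left out. The mitochondrial share differed by 2.42 points as reported, by 0.98 after quantile normalization, by 4.22 without the highest gene of each compartment and by 1.73 to 3.004 with single libraries left out. SHMT2 to SHMT1 gave -0.086 after quantile normalization and -0.0018 to 0.14 with single libraries left out, and the other 3 ratios kept their direction under all 9 alternatives. The median difference of all genes, -0.14 as reported, was 0.014 after quantile normalization and 0.049 after median-of-ratios rescaling. The cause of the changes in the differences, share and ratios was not tested.

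Over all genes 19 were called as reported, 7 with a pseudocount of 0.1, 1 without a filter, 4 after quantile normalization, 6 after median-of-ratios rescaling, 12 without a trend, 47 with robust moderation, 1 to 17 with single libraries left out and 195 without TM replicates 1 and 2. Deviations of same-numbered TC and TM libraries correlated at 0.21, -0.12 and -0.17, which with groups of 3 cannot settle whether the numbers are pairs. The study used paired t-tests for core and margin in its RT-qPCR and ELISA data. In the main fit here the numbers were not taken as pairs. With the replicate block 0 members and 1 gene were called, and MTHFD1 had an unadjusted p of 0.059. Groups of 3 and unknown depth limit these tests to large differences.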
